A study of Mus musculus with 12 samples.

Results

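The oxidative phosphorylation genes described here are 70 nuclear genes, read by 109 cDNA clones, out of 6427 genes and 9514 features measured in mouse brain at postnatal day 10. Each spot is counted as a clone, also where Atp5b and Uqcrc2 had 1 clone spotted 2 times. They were chosen by symbol: genes whose symbol begins with Nduf, Uqcr, Cox4 to Cox8 or Atp5, or is Sdha to Sdhd, Cyc1 or Cycs, with a value in all 12 samples and a clone assigned to that gene alone. By the machinery they belong to, 35 genes fell to complex I, 2 to complex II, 6 to complex III, 1 to cytochrome c, 11 to complex IV and 15 to complex V. Of the 70, 65 encode subunits or cytochrome c. The other 5 are assembly or supercomplex factors that share the names: Ndufaf2, Ndufaf3, Ndufaf4, Ndufaf7 and Cox7a2l. A further 6 genes that match by symbol had no value (Cox4i2, Cox6b2, Ndufaf1, Ndufaf6, Ndufs8 and Uqcrh). Complex II was read through Sdhb and Sdhd only, since the spots of Sdha and Sdhc, 7 in all, are assigned to another gene as well.

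Oxidative phosphorylation couples the oxidation of NADH and succinate to ATP synthesis at the inner mitochondrial membrane. Complexes I (NADH dehydrogenase) and II (succinate dehydrogenase) pass electrons to ubiquinone, complex III hands them to cytochrome c, complex IV (cytochrome c oxidase) gives them to oxygen, and complexes I, III and IV pump the protons that drive ATP synthase, complex V. In brain, most of this ATP pays for ion pumping and synaptic transmission. The subunits come from nuclear and mitochondrial genes, and the genes measured here are all nuclear.

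The study compared 3 genotypes of C57Bl/6j mice: wildtype, Gja9 (-/-), called Gja9_null, and Gja9 (+/-), called Gja9_het, which has lost 1 copy. Each genotype had 4 samples of brain. The labels' Gja9 is today's Gjd2; its product is connexin36, the channel protein that couples neurons electrically. The labels name no tissue-restricted driver for its loss. Total RNA was labelled with Cy5 or Cy3, and 2 samples of the same genotype shared each of the 6 spotted arrays, so each genotype rested on 2 arrays (samples 1 and 2 on the first, 3 and 4 on the second, a pairing read from the values). A value is the log2 of the signal over the mean signal of the same sample. It compares the same gene between samples and not 1 gene with another, and in whole brain fewer cells of a type and less RNA per cell cannot be told apart.

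Nuclear genes of the respiratory chain are known targets of NRF1, GABP and YY1, so the promoter table of RefSeq (GRCm38.p6, from 250 bases before to 50 after each gene's start) was searched for 1 motif of each. The table held 61 of the 70 genes. The NRF1 motif GCGCATGC, on either strand, lay in 11 of the 61 windows (18.0%), against 3.93% of 17491 protein-coding genes with any window in the table. The YY1 motif AAGATGGC lay in 10 (16.4%, against 3.57%) and the GABP motif CCGGAAGT in 3 (4.92%, against 5.69%). A gene was counted once where matches on both strands overlapped, as they do in Ndufa11. The motif TCAAGGTCA of ESRRA, an orphan nuclear receptor of mitochondrial genes, lay in 1, Sdhd (1.64%, against 0.377%). In all, 24 genes held at least 1 of the 4 motifs. A match is a run of letters and not a measured binding site. The stretches around the NRF1 motif are printed for 5 genes whose values are taken up below: Ndufa6, Ndufa11 and Ndufa8 of complex I, Sdhb of complex II, and Cycs. The capitals mark the motif, or its reverse complement GCATGCGC, and each stretch runs 5′ to 3′ on the strand of its gene. They come from chr15:82354332-82354409 (minus strand), chr17:56717667-56717744 (plus), chr2:36049339-36049381 (minus), chr4:140961182-140961259 (plus) and chr6:50566587-50566664 (minus), in that order, all GRCm38.p6.
Ndufa6: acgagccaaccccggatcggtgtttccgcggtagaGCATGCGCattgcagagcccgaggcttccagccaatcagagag
Ndufa11: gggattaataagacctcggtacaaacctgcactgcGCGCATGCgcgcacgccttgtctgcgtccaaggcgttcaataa
Ndufa8: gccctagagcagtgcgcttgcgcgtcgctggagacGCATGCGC
Sdhb: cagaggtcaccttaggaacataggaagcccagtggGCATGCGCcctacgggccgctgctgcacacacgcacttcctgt
Cycs: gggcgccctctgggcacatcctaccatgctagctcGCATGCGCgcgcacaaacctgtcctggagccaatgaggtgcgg
The motif begins 83 bases before the start of Ndufa6, 60 before that of Ndufa11, 8 before Ndufa8, 54 before Sdhb and 60 before Cycs. The 11 genes that share it did not share a direction: 4 of them had a positive difference between Gja9_null and wildtype, with a median of -0.10 and a range from -1.56 (Ndufa6) to 0.74 (Sdhb).

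No oxidative phosphorylation gene passed the test in any of the 3 genotype comparisons (limma, Benjamini-Hochberg adjusted p under 0.05 over all 9514 features, two-sided). For Gja9_null against wildtype, which asks what differs when both copies of Gja9 are lost, 0 of 70 were called where 0.326% of all features were. For Gja9_het against wildtype, which asks the same of 1 lost copy, 0 of 70 were called and 0% of all features. For Gja9_null against Gja9_het it was 0 of 70 against 0.273%. At an unadjusted p under 0.05, 5 of the 70 genes (7.14%, against 11.6% of all features), 2 (2.86%, against 2.19%) and 5 (7.14%, against 15%) lay past the threshold in these comparisons.

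Over the 70 genes the median difference of Gja9_null from wildtype was -0.10 log2 units, equal to the -0.10 of all features, and it came to -0.02 after quantile normalization and 0.003 with the brightest clone of each gene in place of the mean. Quantile normalization moved the median of all features from -0.10 to 0.02. Gja9_het differed from wildtype by a median of -0.03 over the 70 genes and 0.03 over all features. Between Gja9_null and Gja9_het the medians were -0.06 and -0.17, and that of the 70 genes turned to 0.05 after median centring. The median of all features moved too: after quantile normalization it was -0.01, as was that of the 70 genes. The SD of the differences was 0.441 over the 70 genes and 0.530 over all features for Gja9_null against wildtype, and 0.337 and 0.339 for Gja9_het against wildtype. In the first of these a difference beyond 1 log2 unit was found for 1 gene, Ndufa6 (1.43%, against 7.20% of all features). In Gja9_het against wildtype it was again found for 1 gene, Uqcr10 (1.43%, against 1.14%), and between Gja9_null and Gja9_het for 0 of the 70, against 8.66%.

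The precision bounds what could be seen. The standard error of a difference had a median of 0.348 over the 70 genes (0.243 to 0.523), for 4 samples on 2 arrays per genotype. The 95% interval, not adjusted for the number of genes, lay within 1 log2 unit of 0 for 28 genes in Gja9_null against wildtype, for 36 in Gja9_het against wildtype and for 31 in Gja9_null against Gja9_het. For the rest a 2-fold change lay inside the interval or touched it. The intervals rest on 14.5 degrees of freedom and on 1 array correlation (0.927) shared by all genes, although there were only 6 arrays. They can be too narrow for genes whose arrays differ more, so these counts are not firm bounds. The smallest difference that was called for any feature was 1.39 log2 units.

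**Figure D1:**
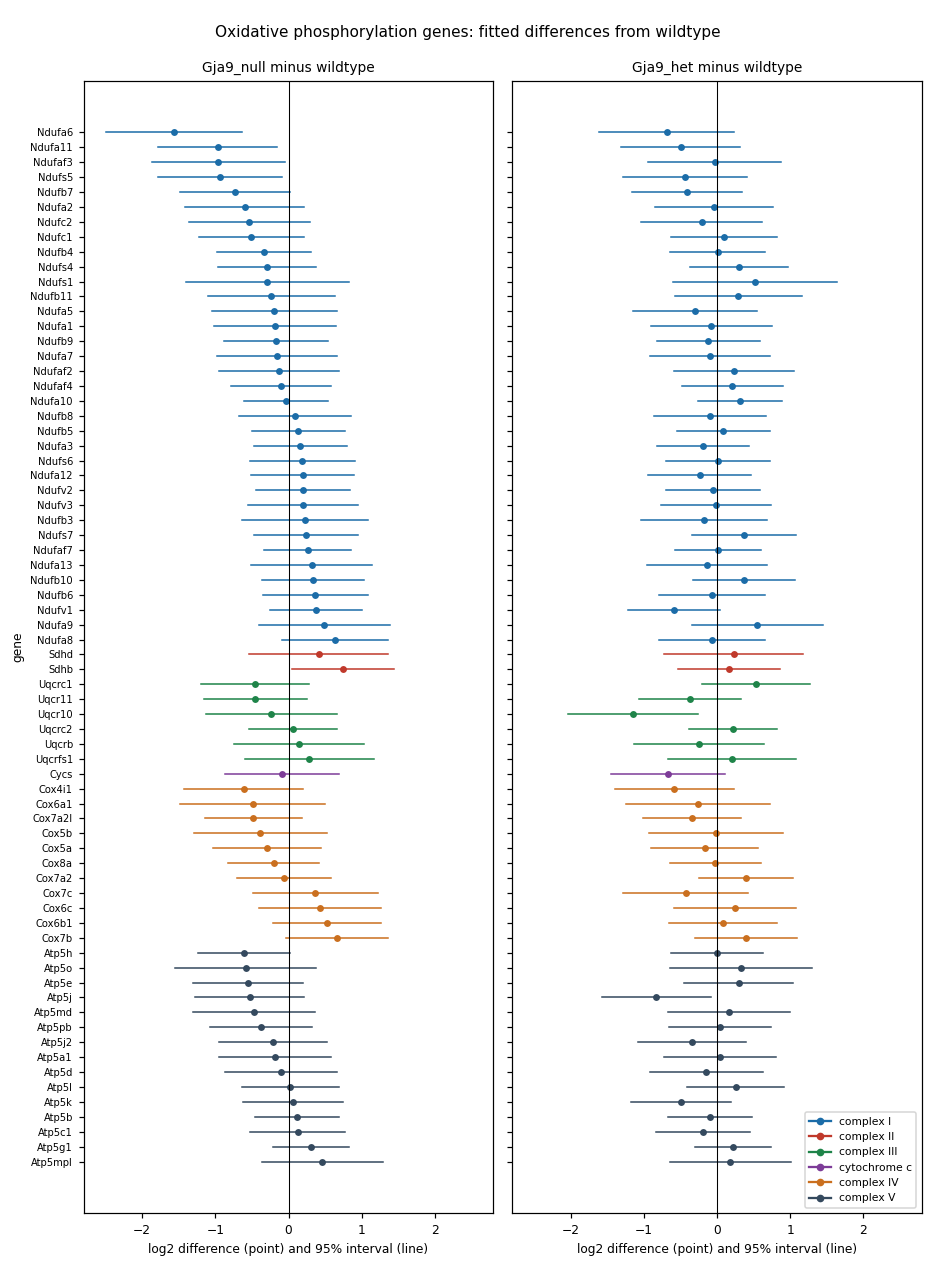
Fitted log2 difference from wildtype (point) with its unadjusted 95% interval (line) for each of the 70 genes, ordered by complex, for Gja9_null (left) and Gja9_het (right). Most intervals cross 0, those of 65 genes at left and 68 at right, and Ndufa6 at -1.56 stands farthest out.

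Complex I, the largest complex, takes electrons from NADH through a hydrophilic arm and pumps protons in its membrane arm. Its 35 genes had a median of -0.10 in Gja9_null against wildtype, which turned to 0.05 after local centring (each sample's values less the median deviation over neighbouring probe numbers) and to 0.09 after quantile normalization, and was -0.04 without the first Gja9_null array. They ran from Ndufa6 to Ndufa8, and 16 of the 35 were positive. In Gja9_het against wildtype the median was -0.06, with 14 of the 35 positive.

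The lowest gene was Ndufa6, an accessory subunit that binds the mitochondrial acyl carrier protein. Its wildtype values were 0.02, -0.02, -0.26 and -0.11. In Gja9_null they were -2.32, -2.30, -0.93 and -1.07, and in Gja9_het -0.63, -0.35, -1.17 and -0.96. All mutant samples of both kinds lay under all wildtype samples, and the first Gja9_null array, with samples 1 and 2, lay under every other sample. Ndufa6 differed by -1.56 ± 0.43 in Gja9_null (SE, n = 4 per genotype, limma adjusted p = 0.166) and by -0.69 ± 0.43 in Gja9_het (adjusted p = 1). The Gja9_null difference was -0.91 ± 0.41 without that array and -0.85 after local centring (adjusted p = 0.136).

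A further 3 genes of complex I lay lower in Gja9_null at an unadjusted p under 0.05: Ndufa11, Ndufs5 and the assembly factor Ndufaf3. Among all 70 genes, Ndufa6 included, 4 did so (5.71%), against 9.22% of all features. Ndufs5, an accessory subunit on the intermembrane side, had wildtype values of 1.40, 1.11, 1.73 and 1.69, Gja9_null values of 0.14, 0.31, 1.0 and 0.74, and Gja9_het values of 1.17, 1.02, 1.17 and 0.84. Its highest Gja9_null sample was under its lowest wildtype sample, while Gja9_het overlapped both. The difference of Gja9_null was -0.93 ± 0.40 (limma adjusted p = 0.385), and -0.61 without the first Gja9_null array.

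Ndufa11, a membrane-arm subunit that lies where complex I meets complex III, was split by array in both genotypes. Its wildtype values were -1.01 and -0.94 on the first array and 0.06 and 0.01 on the second, against -2.04 and -1.99, then -0.87 and -0.86, in Gja9_null. The second Gja9_null array thus lay above the first wildtype array. The 4 Gja9_het samples lay between -1.01 and -0.90, near the first wildtype array. Gja9_null differed by -0.97 ± 0.38 (limma adjusted p = 0.34), by -0.39 without the first Gja9_null array and by -0.36 after local centring.

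Ndufaf3, which acts early in building the hydrophilic arm, had wildtype values of -1.14, -1.26, -1.03 and -1.39 and Gja9_null values of -2.75, -2.67, -1.50 and -1.75. These groups did not overlap, and the 4 Gja9_het samples, from -1.64 to -0.96, spanned the wildtype range. The difference was -0.96 ± 0.43 from wildtype (limma adjusted p = 0.404) and -0.93 from Gja9_het, and from wildtype it was -0.42 without the first Gja9_null array and -0.27 after local centring. Its partner Ndufaf4 was read by 3 clones, with differences of 0.54, -1.10 and 0.25, the widest disagreement in Gja9_null against wildtype among the 32 genes with more than 1 clone.

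Some complex I subunits leaned the other way. Ndufa8, a disulfide-linked subunit of the intermembrane side, had wildtype values of 0.66, 0.56, 0.51 and 0.68 and Gja9_null values of 1.54, 1.28, 1.11 and 1.06. The groups did not overlap, and the Gja9_het values of 0.46, 0.28, 0.72 and 0.68 lay about the wildtype ones. The difference was 0.64 ± 0.34 (limma adjusted p = 0.502), made of clones at 1.02 and 0.26. Ndufb7, of the same side of the membrane arm, lay lower, at -0.73 ± 0.35 with clones at -0.81 and -0.64. On the mean of its clones, all 4 samples in each mutant genotype lay under the 4 wildtype ones. In Gja9_het, however, the clones gave -0.84 and 0.02. In the clone at 0.02, wildtype ran from 0.30 to 1.33, and samples of both mutant genotypes lay inside that range.

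Ndufv1, the flavoprotein that binds NADH, set the mutant genotypes apart more than it set either from wildtype. In wildtype it read 0.13, 0.12, 0.18 and 0.08. In Gja9_null they were 0.64, 0.52, 0.45 and 0.42, all above wildtype, and in Gja9_het -0.82, -0.91, 0.02 and -0.12, all below. The difference between Gja9_null and Gja9_het was 0.96 ± 0.29 (limma adjusted p = 0.159). Against wildtype it was 0.38 in Gja9_null and -0.59 in Gja9_het. The spread in Gja9_het was between its arrays, the first lying lower. Both clones were positive between Gja9_null and Gja9_het, at 0.75 and 1.18. Against wildtype they gave 0.01 and 0.74 in Gja9_null, and -0.74 and -0.44 in Gja9_het. Their wildtype array gaps were opposed: 0.15, 0.27, 0.78 and 0.71 in the first, and 0.11, -0.03, -0.41 and -0.55 in the second. The even wildtype values above are means of these, and in neither clone did Gja9_het lie wholly below wildtype.

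Of the core subunits of the hydrophilic arm, Ndufs1, the largest iron-sulfur subunit, was split by array in wildtype. It read 0.78 and 0.90 on the first wildtype array and -0.60 and -0.66 on the second. The Gja9_null samples, from -0.65 to 0.13, fell within that range, and the Gja9_het samples, from 0.05 to 1.24, reached above it. Its difference in Gja9_null was -0.29, with a 95% interval from -1.40 to 0.83. Ndufs7, which carries the last iron-sulfur cluster before ubiquinone, lay above wildtype in all 4 Gja9_het samples, by 0.37 ± 0.33, as did the membrane-arm subunit Ndufa10, by 0.32 ± 0.27, both with a limma adjusted p of 1.

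**Figure D2:**
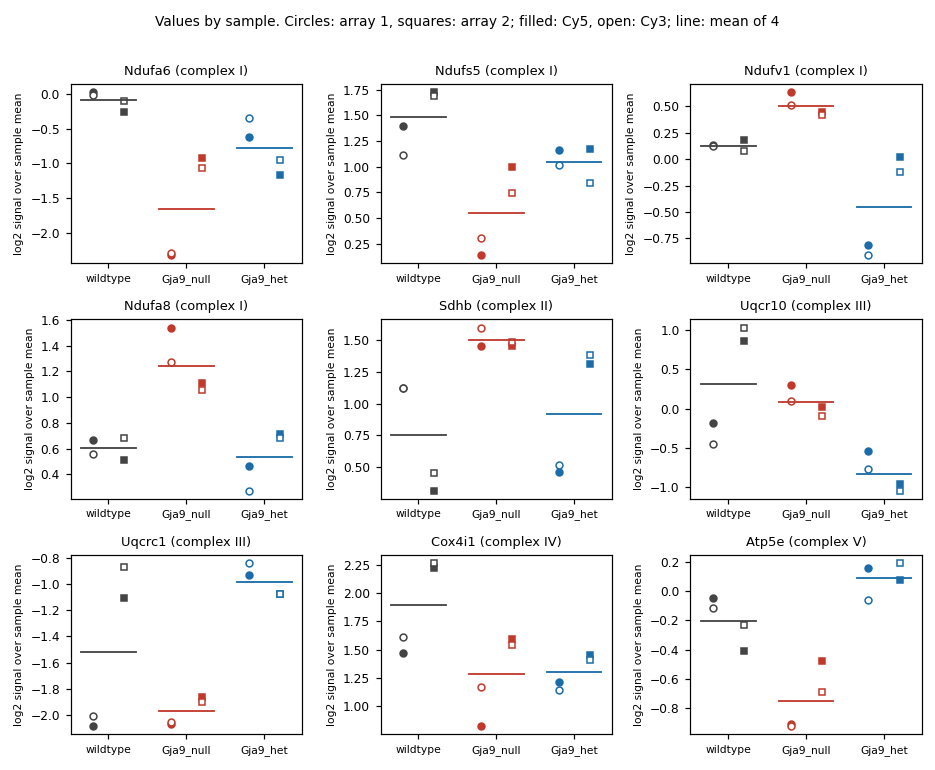
Log2 signal over the sample mean for 9 genes in all 12 samples; circles are samples 1 and 2 (the first array of a genotype), squares samples 3 and 4 (the second), filled points Cy5, open points Cy3, and lines the mean of 4. Samples taken as the 2 colours of an array lie close together, which is how they were paired. For Ndufa6 the first Gja9_null array, at -2.32 and -2.30, lies under all other samples.

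Complex II feeds electrons from succinate, an intermediate of the citric acid cycle, into the chain and pumps no protons. Sdhb, its iron-sulfur subunit, was the only 1 of the 70 genes (1.43%) higher in Gja9_null at an unadjusted p under 0.05, against 2.41% of all features. Wildtype samples read 1.12, 1.12, 0.32 and 0.46. In Gja9_null they were 1.46, 1.60, 1.45 and 1.49, all above wildtype, and in Gja9_het 0.47, 0.51, 1.31 and 1.39. The wildtype and Gja9_het arrays lay apart while those of Gja9_null nearly coincided. The difference of Gja9_null was 0.74 ± 0.33 (limma adjusted p = 0.403), and 0.34 after local centring. Sdhd, a membrane anchor of the complex, had the widest gap between Gja9_null arrays of all 70 genes: -0.47 and -0.18 on the first, 1.17 and 1.18 on the second. Its wildtype samples lay between -0.17 and 0.20, inside that gap, and the difference was 0.41 ± 0.44, or 1.16 without the first Gja9_null array.

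Complex III, the cytochrome bc1 complex, was read through 6 genes with a median of -0.09 in Gja9_null and -0.02 in Gja9_het against wildtype, 3 of them positive in each. The first of these medians was 0.005 after quantile normalization, -0.22 after local centring and -0.15 without the first Gja9_null array. Uqcr10, a small accessory subunit, gave the largest difference in Gja9_het of the 70 genes. It read -0.19, -0.45, 0.86 and 1.04 in wildtype, -0.55, -0.77, -0.96 and -1.05 in Gja9_het, and 0.30, 0.10, 0.02 and -0.09 in Gja9_null. All Gja9_het samples lay under all others, although the gap from wildtype 2 was small. The difference of Gja9_het was -1.15 ± 0.42 from wildtype (limma adjusted p = 1), and Gja9_null lay above Gja9_het by 0.91 ± 0.42 (adjusted p = 0.324). At an unadjusted p under 0.05, Uqcr10 and Atp5j were the 2 genes lower in Gja9_het (2.86%, against 0.515% of all features), and 0 were higher (against 1.67%).

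Uqcrc1, a core protein facing the matrix, lay lower in Gja9_null than in Gja9_het. Its Gja9_null values were -2.07, -2.05, -1.86 and -1.90 and its Gja9_het values -0.93, -0.84, -1.08 and -1.08, with wildtype split between -2.09 and -2.01 on the first array and -1.11 and -0.87 on the second. The mutant genotypes did not overlap, and wildtype spanned nearly the whole distance between them. Gja9_null differed from Gja9_het by -0.99 ± 0.35 (limma adjusted p = 0.211). The difference was -1.03 after local centring (limma adjusted p = 0.0892) and ran from -1.03 to -0.45 over the alternatives. The clones were unequal, at -1.54 and -0.45, and the first of them lay far under the sample mean, with wildtype values from -4.52 to -2.98. So did a clone of Uqcrc2, the partner core protein, from -3.73 to -2.93 in wildtype. It lay higher in Gja9_het, by 1.24 ± 0.46 from wildtype, near the 1.44 ± 0.47 of the Uqcrc1 clone. These clones lie at 385 and 172 in the probe numbering. For Gja9_het against wildtype, clones at 160 (Uqcr11, -0.43) and 242 (Ndufa13, -0.30) differed the other way. An effect of position was not tested. The other 3 Uqcrc2 spots, the first 2 of them of 1 clone, gave -0.30, 0.12 and -0.15 for Gja9_het against wildtype, and the gene as a whole 0.22.

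Uqcrfs1, the Rieske iron-sulfur protein through which electrons leave ubiquinol, differed by 0.29 ± 0.41 in Gja9_null (95% interval -0.59 to 1.16), or 0.04 without the first Gja9_null array, and by 0.21 in Gja9_het. Uqcr11, another small subunit, differed by -0.45 ± 0.33 in Gja9_null, with clones at -0.93 and 0.02. Cytochrome c, the mobile carrier between complexes III and IV, was read by 1 clone of Cycs. The wildtype samples read 1.39, 1.60, 2.39 and 2.45, the Gja9_null samples 1.59, 1.90, 1.97 and 1.99, and the Gja9_het samples 1.21, 1.13, 1.37 and 1.44. The Gja9_null samples lay inside the wildtype range. In Gja9_het 3 of 4 samples lay below it, and the difference was -0.67 ± 0.36 (limma adjusted p = 1).

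Complex IV reduces oxygen, and its nuclear subunits surround a catalytic core encoded in mitochondrial DNA. Its 11 genes had a median of -0.21 in Gja9_null and -0.02 in Gja9_het against wildtype, with 4 of 11 positive in each. The first of these was -0.04 after quantile normalization, -0.12 after local centring and -0.20 without the first Gja9_null array. Cox4i1, the subunit that binds ATP and regulates the enzyme, had wildtype values of 1.47, 1.61, 2.22 and 2.27, Gja9_null values of 0.83, 1.17, 1.59 and 1.54, and Gja9_het values of 1.21, 1.15, 1.45 and 1.41. On the mean of its clones, all Gja9_het samples lay under wildtype, and so did the first Gja9_null array, while the second overlapped it. The differences were -0.61 ± 0.38 and -0.59 ± 0.38 (limma adjusted p of 0.579 and 1). In Gja9_null its clones gave -0.08 and -1.14, and in Gja9_het -0.61 and -0.56. In the first clone all samples of both mutant genotypes lay inside the wildtype range, 1.66 to 3.17.

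Cox7b, a small subunit of the enzyme's membrane part, lay above wildtype in all 4 Gja9_null samples. Its values were 1.06, 1.0, 1.06 and 1.12 there, against 0.81, 0.59, 0.14 and 0.07 in wildtype, and 0.49, 0.39, 1.23 and 1.08 in Gja9_het. The difference was 0.66 ± 0.33 (limma adjusted p = 0.461). Cox7a2l, a supercomplex factor, lay below wildtype in all 4 Gja9_null samples, at -0.48 ± 0.31, although its clones gave 0.09 and -1.05. Cox7c lay higher in Gja9_null than in Gja9_het, by 0.79 ± 0.40, and Cox7a2 differed there by -0.46 ± 0.30. Cox5a, which sits on the matrix side, differed by -0.30 in Gja9_null (95% interval -1.03 to 0.44), or -0.57 without the first Gja9_null array, and by -0.17 in Gja9_het.

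Complex V, ATP synthase, joins a catalytic head to a rotor in the membrane through a peripheral stalk. Its 15 genes had a median of -0.18 in Gja9_null, which was -0.02 after local centring, -0.22 after quantile normalization and -0.24 without the first Gja9_null array, and 0.04 in Gja9_het against wildtype. The catalytic sites lie in the head, on its alpha and beta subunits. Atp5b, the beta subunit, was read by 3 spots, 2 of them of 1 clone. It differed by 0.11 ± 0.27 in Gja9_null and -0.09 ± 0.27 in Gja9_het, with 95% intervals from -0.46 to 0.69 and -0.66 to 0.49. Its spots in Gja9_null gave -0.45, 0.38 and 0.41. Atp5a1, the alpha subunit, differed by -0.18 (-0.95 to 0.58) and 0.05 (-0.72 to 0.81). Its Gja9_null arrays had means of 2.20 and 1.45, and without the first of them the Gja9_null difference was -0.56 ± 0.35.

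Of the stalk subunits, Atp5j was lower in Gja9_het than in wildtype at an unadjusted p under 0.05. Its wildtype values were 1.13, 1.14, 1.69 and 1.78 and its Gja9_het values 0.31, 0.28, 0.96 and 0.89, with Gja9_null at 1.40, 1.34, 0.40 and 0.48. Gja9_het lay wholly below wildtype, and of the Gja9_null arrays the first lay inside the wildtype range and the second below it. The difference of Gja9_het was -0.83 ± 0.35 (limma adjusted p = 1). Atp5h, another stalk subunit, had Gja9_null values of -0.24, -0.24, 0.25 and 0.32, all under the wildtype values of 0.53, 0.45, 0.79 and 0.77. Its difference was -0.61 ± 0.29 and turned to 0.18 after local centring. Atp5pb, the stalk's b subunit, differed by -0.38 ± 0.32, with clones at 0.26 and -1.01.

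Atp5e, the epsilon subunit of the central shaft, had Gja9_null values of -0.91, -0.93, -0.48 and -0.69, wildtype values of -0.04, -0.12, -0.41 and -0.23, and Gja9_het values of 0.16, -0.06, 0.08 and 0.20. The Gja9_null samples lay under all others. The difference was -0.55 ± 0.35 from wildtype (limma adjusted p = 0.586) and -0.85 ± 0.35 from Gja9_het (adjusted p = 0.281), and these were -0.02 and -0.20 after local centring. Atp5g1, which encodes the c subunit of the rotor ring, lay above wildtype in every mutant sample by a small margin, at 0.31 ± 0.24 in Gja9_null and 0.22 ± 0.24 in Gja9_het, and its clones in Gja9_null gave 0.22, 0.87 and -0.15. Atp5k, of the membrane part, differed by 0.06 in Gja9_null and -0.49 ± 0.32 in Gja9_het.

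Genes whose groups did not overlap were counted beside the same share of all features. The counts use the mean of a gene's clones where it had several, and single clones could overlap. In Gja9_null all 4 samples lay above wildtype for 5 genes (Atp5g1, Cox7b, Ndufa8, Ndufv1 and Sdhb; 7.14%, against 7.52%) and below it for 7 (Atp5e, Atp5h, Cox7a2l, Ndufa6, Ndufaf3, Ndufb7 and Ndufs5; 10%, against 15.6%). In Gja9_het they lay above for 3 (Atp5g1, Ndufa10 and Ndufs7; 4.29%, against 8.67%) and below for 6 (Atp5j, Cox4i1, Ndufa6, Ndufb7, Ndufv1 and Uqcr10; 8.57%, against 6.09%). Gja9_null lay above Gja9_het for 8 genes (11.4%, against 10.2%) and below it for 10 (14.3%, against 22.5%). At an unadjusted p under 0.05, Ndufv1 and Uqcr10 were higher in Gja9_null than in Gja9_het (2.86%, against 3.64%), and Atp5e, Ndufaf3 and Uqcrc1 were lower (4.29%, against 11.3%). Both comparisons with wildtype share the 4 wildtype samples.

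**Figure D3:**
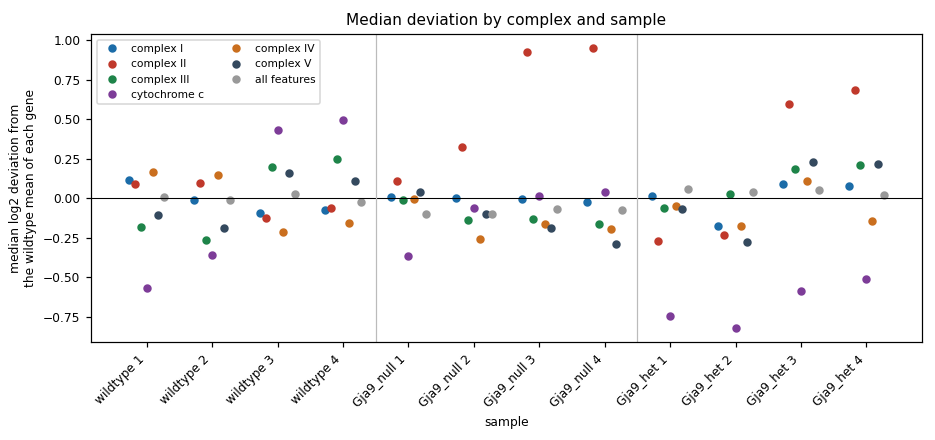
Median log2 deviation from each gene's wildtype mean, by complex, in each of the 12 samples, with all features in grey. Complex II, with 2 genes, reaches 0.93 and 0.95 in Gja9_null 3 and 4 but 0.11 and 0.32 in Gja9_null 1 and 2, and cytochrome c lies below 0 in all 4 Gja9_het samples.

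Arrays of 1 genotype, as paired from the values, differed more than the colours of 1 array. Samples were paired because their values moved together, so this order follows from the pairing and is no separate result. The values alone do not tell a shared array from anything else that a pair shared. Over the 70 genes, wildtype arrays lay a median of 0.445 log2 units apart (absolute gap), Gja9_null arrays 0.375 and Gja9_het arrays 0.318, while colours lay 0.087, 0.113 and 0.088 apart. The gaps between arrays over all features were 0.357, 0.434 and 0.277. Single genes reached 1.48 in wildtype (Ndufa9), 1.50 in Gja9_null (Sdhd) and 1.62 in Gja9_het (Uqcrb, a subunit of complex III). Local centring lowered the gaps to 0.241, 0.171 and 0.295 and the median standard error to 0.219. It changed the sign of 15 of the 70 differences between Gja9_null and wildtype, of which that of Atp5h was the largest, and called 0 of the 70.

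**Figure D4:**
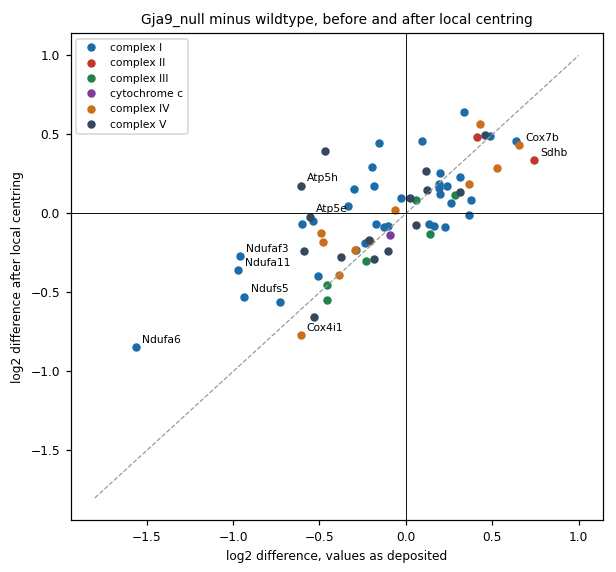
Log2 difference of Gja9_null from wildtype for the 70 genes, from the deposited values (horizontal) and after local centring (vertical), with the line of equality dashed. Ndufa6 stays lowest at -0.85, Ndufaf3 comes to -0.27 and Atp5h crosses 0 to 0.18.

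Clones give a second reading of the same transcript. For 32 of the 70 genes at least 2 clones were measured, and in Gja9_null against wildtype all clones had the same sign for 16 (50%), against 43.2% of 2586 such genes on the array. The median gap between the highest and the lowest clone was 0.748, against 0.610, and it was above 1 log2 unit for 11 genes (34.4%, against 27.3%). After Ndufaf4 (1.65) the widest gaps were those of Atp5pb and of Ndufa5, an accessory subunit of the hydrophilic arm, whose clones gave 0.43 and -0.81. In Gja9_het against wildtype, clones had the same sign for 13 of 32 genes (40.6%, against 40.7%), and the gap was above 1 log2 unit for 5 (15.6%, against 8.24%), the widest that of Uqcrc1 (1.81). Each of Atp5b and Uqcrc2 had a clone spotted 2 times: the spots gave 0.38 and 0.41 for Atp5b but -0.36 and 0.43 for Uqcrc2. For Ndufa6, Ndufs5, Ndufa11, Ndufaf3, Sdhb, Uqcr10, Atp5e and Atp5j, 1 clone was measured, so no second reading was had.

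**Figure D5:**
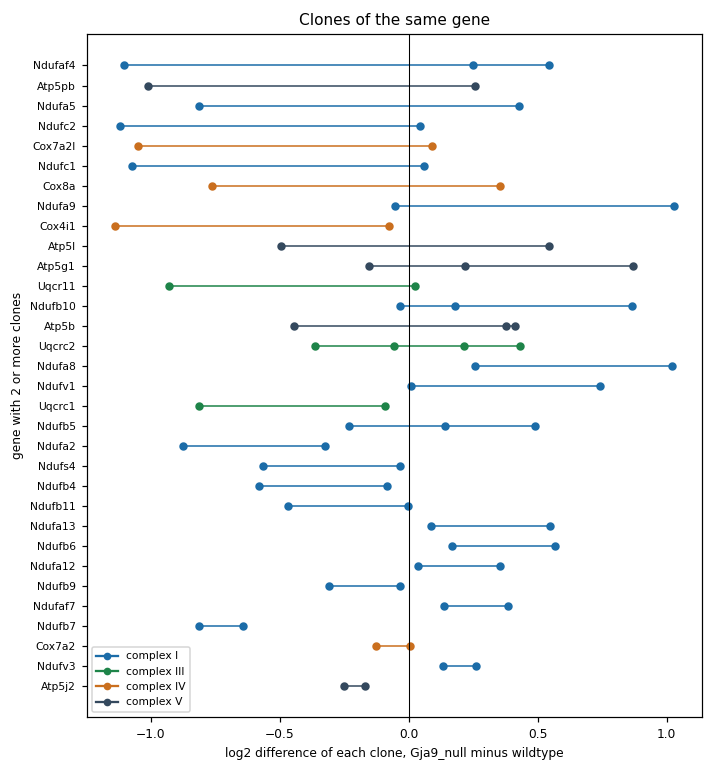
Log2 difference between Gja9_null and wildtype for each clone of the 32 genes with 2 or more clones, with a line from the lowest to the highest clone, ordered by that gap. Clones lie on both sides of 0 for 16 genes, Ndufaf4 at the top with -1.10, 0.25 and 0.54.

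The genes around the respiratory chain gave no called member either, whether for assembly and cofactor delivery (17 of 39 listed genes measured), carriers, porins and energy buffering (12 of 21), the citric acid cycle and electron entry (19 of 24), transcription and mitochondrial DNA expression (6 of 19) or antioxidants (3 of 10). Their median differences between Gja9_null and wildtype were 0.09, 0.05, -0.10, 0.09 and 0.15, in that order, beside the -0.10 of all features. At an unadjusted p under 0.05 in this comparison, 1 carrier was higher, 1 gene of the citric acid cycle list was higher and 3 were lower, and 1 antioxidant was lower, where 2.41% of all features were higher and 9.22% lower. The other lists held 0 such genes. Vdac1, the pore of the outer mitochondrial membrane, had Gja9_null values of 2.53, 2.56, 1.96 and 1.94 over wildtype values of 1.26, 1.21, 1.02 and 1.15, a difference of 1.09 ± 0.34 (limma adjusted p = 0.236). Of the citric acid cycle, Sucla2 (-0.67) and Idh3b (-0.61) lay lower, as did Dhodh, which passes electrons to ubiquinone (-0.88). Fh1, fumarase, lay higher (1.11), with wildtype samples at -1.84 and -1.92 on the first array and 0.16 and 0.16 on the second. Prdx3, a mitochondrial peroxidase, lay lower (-0.68).

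Among the regulators, Nrf1 lay lowest in Gja9_null, at -2.34, -2.22, -1.48 and -1.78, against -1.20, -1.31, -0.80 and -1.17 in wildtype and -0.15, -0.23, -1.01 and -1.01 in Gja9_het. All Gja9_null samples lay under all others. The difference was -0.83 ± 0.41 from wildtype (limma adjusted p = 0.461) and -1.36 ± 0.41 from Gja9_het (adjusted p = 0.159). Gabpa (-0.28) and Yy1 (0.40) differed less from wildtype. The 10 genes with a YY1 motif had a median of -0.06, and the 3 with a GABP motif, Atp5h, Cox8a and Uqcr11, ran from -0.61 to -0.21. The median of all features was -0.10. Atp5h changed sign after local centring. The clones gave 0.35 and -0.76 for Cox8a, and -0.93 and 0.02 for Uqcr11.

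The targeted gene was not checked, since no measured clone carries the name Gjd2. Markers of 8 cell types were measured for 1 to 5 genes each, among them 5 of 11 neuronal, 5 of 9 astrocyte, 3 of 8 oligodendrocyte and 4 of 7 microglial ones, and 0 were called. The mean level of 5 neuronal markers lay between 1.68 and 2.05 in wildtype, 0.76 and 1.84 in Gja9_null, and 1.74 and 1.99 in Gja9_het. That of 5 astrocyte markers lay between 0.41 and 1.04, 1.01 and 1.45, and 0.67 and 0.98. That of 3 oligodendrocyte markers lay between 0.82 and 1.28, 0.11 and 1.11, and 0.10 and 1.32. Single neuronal markers differed between Gja9_null and wildtype by -1.74 (Nefm, limma adjusted p = 0.217), -0.77 (Syt1), -0.30 (Map2), -0.01 (Tubb3) and 0.23 (Nefl). The astrocyte markers differed by 1.66 (Fabp7, limma adjusted p = 0.363), 0.90 (Slc1a3, adjusted p = 0.288), 0.36 (Glul), -0.18 (Gja1) and -0.24 (Aldoc). Fabp7 was split by array in wildtype, at -1.36 and -1.12 on the first and 1.65 and 1.79 on the second. It differed by 1.75 in Gja9_het as well. That split also enters the mean level of the astrocyte markers in wildtype. Of 3 erythroid markers, Alas2 differed by -1.45 (limma adjusted p = 0.107), while Hba-a2 (0.17) and Hbb-b1 (0.39) were positive. From Gja9_het, Gja9_null differed by -1.71 for Alas2 (limma adjusted p = 0.0576) and by 1.39 for Slc1a3 (adjusted p = 0.0724). Hba-a2 and Hbb-b1 were again positive there, at 0.18 and 0.73. The other astrocyte markers differed there by 0.44 (Glul), 0.19 (Gja1), 0.04 (Aldoc) and -0.09 (Fabp7). Nefm (neuron, -1.31), Tyrobp (microglia, -1.32) and Tek (endothelium, -1.07) lay lower than in Gja9_het. In their lists 1 of 5, 2 of 4 and 1 of 3 markers were positive. The part of other cell types in the differences of the oxidative phosphorylation genes was not tested.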

How the data were processed

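Per the labels' protocols, 60 micrograms of total brain RNA per sample (12 samples) received Cy5 or Cy3 by direct incorporation. The labelling text names the other dye than the label field for wildtype 3 and Gja9_null 1, and the label field was followed. The deposited values are log2 signals relative to each sample's mean signal, a scale read from the values: which background or dye correction, probe filter or other normalization preceded them is not given in the sources. Of 28704 probes, 13443 had a value, in all 12 samples. Of these, 10356 had 1 gene in the probe table, 560 had several and 2527 none. Clones of a gene were averaged, and the rest were tested alone. The values do not show signal over background, and precision is limited by the number of arrays. The labels do not tie samples to separate animals beyond calling them biological replicates.

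The arrays that samples shared were read from the values: differences between samples 1 and 3 and between 2 and 4 correlated at 0.940, 0.933 and 0.919 in wildtype, Gja9_null and Gja9_het, so samples 1 and 2, and 3 and 4, were taken as the 2 colours of an array. Replicate numbers do not pair genotypes. Differences were fitted with limma 3.58.1 in R 4.3.3 to the 12 samples together; genotype and dye were fixed terms, the array a random block (correlation 0.927), with Benjamini-Hochberg adjustment across the 9514 features. On simulated data for Gja9_null against wildtype over 9514 features, the fit recovered 83.5% of 200 features changed by 2 log2 units, with 45 false calls, and 2% of those changed by 1, with 3. In both settings the false calls were a larger share of all calls than an adjusted p under 0.05 allows. The features called in the data may thus hold more false calls than that threshold states. Local centring subtracts the median deviation over 50 probe numbers on either side.

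The members and lists were chosen with earlier results of these data known. Named genes are, per complex, those of smallest p in each comparison (3 for Gja9_null against wildtype, 2 for the others), complex II and cytochrome c, core subunits, the 3 genes whose clones differ most, and genes whose groups do not overlap where a count was 8 or fewer. Genes of the neighbouring lists, markers and Ndufa9, Uqcrb, Uqcrc2 and Cox8a were named beside this rule, after their values were seen. Alternatives covered the array block and pairing, the replicate number as a block, dye, normalization, local centring, clones, dim probes, samples in the fit, spread model, threshold, and leaving out samples or the first Gja9_null array. Python 3.11.15 was used for tables and figures.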

Additional observations from a re-analysis of the deposited data

Results flagged for a closer look

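Cox7a2, of complex IV, had 1 sample apart from its group: Gja9_null 2 read 0.923, while the other 3 Gja9_null samples lay between 1.10 and 1.12. It was the only 1 of 99 sets of 4 samples examined (33 named genes in 3 genotypes) to pass Dixon's 95% limit. About 1 in 20 sets of independent values pass when nothing differs, but the 2 colours of an array are not independent. The value is a mean of 2 clones. In Gja9_null 1 to 4 these read 1.60, 1.42, 1.29 and 1.49, and 0.65, 0.43, 0.91 and 0.74. In the first clone Gja9_null 2 was not the lowest sample.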

How the results depend on the processing

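The count of called oxidative phosphorylation genes was 0 in each comparison under every alternative run except those on the array. With no array block it was 6 for Gja9_null against wildtype, 10 for Gja9_null against Gja9_het and 0 for Gja9_het against wildtype; this fit takes the 2 colours of an array as independent. With the other pairing of samples into arrays it was 58, 45 (Gja9_het against wildtype) and 56, and the fitted array correlation was then -0.908. With the replicate block, the replicate number as a term, it was 0 in each comparison; same-numbered samples correlated between -0.101 and 0.237 across genotypes, so they share only a number. The median difference of Gja9_null from wildtype was -0.022 after quantile normalization, -0.011 after cyclic loess, -0.026 after median centring, -0.014 after local centring, 0.003 with the brightest clone of each gene and -0.056 without the first Gja9_null array. That of Gja9_null from Gja9_het was 0.052 after median centring, 0.087 after local centring and 0.075 with the brightest clone. That of Gja9_het from wildtype stayed between -0.088 and -0.004. The 12 differences at an unadjusted p under 0.05 kept their sign in all 27 alternatives run for each, and passed the threshold only with no array block or the other pairing. The cause of these shifts was not tested.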
